A study of Mus musculus with 2 samples.

Results

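The distal EP300 peaks described here carry a composite of an E-box part and a GATA motif close to their summit. The composite was CTG, then 7, 8 or 9 bases of any kind, then A or T, then GATAA, on either strand, with the whole site within 100 bp of the summit. GATA motif means A or T, then GATAA, throughout, and looser forms are not counted. A peak was distal when its summit lay more than 1 kb and at most 100 kb from the nearest annotated transcription start site (TSS). Of the 17055 peaks of the authors' optimal list, 12379 were distal and 3185 of these held the composite, which is 25.7% of the distal peaks (95% Wilson interval 24.97 to 26.5%). Within that list the rule used position and sequence only, so signal and recurrence are readouts that were not used to tell members from its other peaks. The list itself holds peaks kept for their agreement between lists, so all of its peaks had passed that filter. The peaks came from chromatin immunoprecipitation with an antibody against EP300 in livers of B6NCrl mouse embryos at 14.5 days, sequenced as 2 libraries. The livers were pulverized and pooled over several dissections and both sexes, and there was 1 group, with no genotype or treatment to compare. They carry the numbers 1 and 2 of biological replicates but 1 biosample label, so the spread between them may be technical. All intervals on shares are 95% Wilson intervals over peaks, sites or genes and cover counting error only. No p-value is given, since peaks of 1 tissue pool are not replicates of animals.

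EP300 is a histone acetyltransferase that is recruited to active enhancers by transcription factors. In red cell precursors TAL1, paired with an E protein, binds the E-box, GATA1 binds the GATA motif, and LMO2 and LDB1 bridge the pair into one complex. At this stage red cells of the fetus form mainly in the liver, and hepatocytes, macrophages and endothelial cells lie among the erythroblasts. A bulk pool does not separate cell types, so the number of cells with a peak and the strength of the peak per cell cannot be told apart.

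Sites at globin genes, a heme gene and regulators of blood formation are shown, with other strong members, to make the geometry of the composite visible. All are mm10 sequence, read on the strand of the composite with 30 bases on either side; capitals mark CTG and the GATA motif, and where a peak held several sites the one nearest to the summit is given. Each is named by its nearest protein-coding gene. The first 4 have 7 bases between CTG and the motif, the next 8 have 8 bases and the last 3 have 9 bases.
Nprl3, chr11:32245717-32245792, + strand: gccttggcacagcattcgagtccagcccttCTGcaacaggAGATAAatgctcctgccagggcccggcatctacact
Cbfa2t3, chr8:122685611-122685686, - strand: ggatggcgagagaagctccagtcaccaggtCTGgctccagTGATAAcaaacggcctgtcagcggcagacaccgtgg
Hbb-bt, chr7:103809138-103809213, + strand: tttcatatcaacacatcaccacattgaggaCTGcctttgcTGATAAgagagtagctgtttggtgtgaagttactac
Ep300, chr15:81577791-81577866, + strand: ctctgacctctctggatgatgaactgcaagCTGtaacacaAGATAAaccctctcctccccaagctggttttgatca
Cpeb4, chr11:31861277-31861353, - strand: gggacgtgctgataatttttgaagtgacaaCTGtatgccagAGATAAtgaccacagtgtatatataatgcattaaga
Gtf3c5, chr2:28598289-28598365, + strand: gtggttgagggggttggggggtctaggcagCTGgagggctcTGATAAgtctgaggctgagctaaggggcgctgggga
Alas2, chrX:150549824-150549900, - strand: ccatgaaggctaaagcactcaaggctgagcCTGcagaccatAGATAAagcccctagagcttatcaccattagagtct
Cbfa2t3, chr8:122719899-122719975, + strand: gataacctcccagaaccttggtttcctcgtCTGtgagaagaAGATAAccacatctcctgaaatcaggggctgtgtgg
Foxo3, chr10:42265178-42265254, - strand: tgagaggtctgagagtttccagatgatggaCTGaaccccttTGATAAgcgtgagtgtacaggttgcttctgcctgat
Tal1, chr4:115048326-115048402, + strand: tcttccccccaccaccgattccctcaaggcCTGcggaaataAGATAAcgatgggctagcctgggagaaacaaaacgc
Gata2, chr6:88203158-88203234, + strand: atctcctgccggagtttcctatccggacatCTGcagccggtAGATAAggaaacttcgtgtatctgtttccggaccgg
Kit, chr5:75608054-75608130, + strand: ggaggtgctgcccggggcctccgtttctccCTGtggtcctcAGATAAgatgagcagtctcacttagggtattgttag
Olfr66, chr7:103877295-103877372, + strand: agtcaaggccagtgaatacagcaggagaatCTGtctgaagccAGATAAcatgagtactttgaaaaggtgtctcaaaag
Gata1, chrX:7971460-7971537, + strand: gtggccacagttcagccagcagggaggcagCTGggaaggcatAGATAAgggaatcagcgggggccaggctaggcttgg
Cpeb4, chr11:31844049-31844126, + strand: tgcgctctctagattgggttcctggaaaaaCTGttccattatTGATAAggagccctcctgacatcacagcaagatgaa

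In the Nprl3, Alas2, Tal1, Ep300 and Olfr66 sites the GATA motif begins with A, and in the Hbb-bt, Foxo3 and Gtf3c5 sites with T. The Gata2 site is the intronic element of that gene whose E-box and GATA pair is known to be needed for the formation of blood stem cells. Its CTG completes the E-box CATCTG, while the Gata1 and Gtf3c5 sites complete CAGCTG. Of the other 12 sites shown, 1 Cpeb4 site has a full E-box, CAACTG, and the rest hold CTG without the CA before it.

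The pair was concentrated at the 3 spacings of the rule. A scan of all spacings between 0 and 30 bases found 1678 distal peaks with spacing 8, 935 with spacing 7 and 665 with spacing 9. The 26 spacings from 0 to 5 and from 11 to 30 were found in 330 to 514 peaks each, with a mean of 391.8 and an SD of 35.99 over spacings. Spacing 8 was thus 4.28 times as frequent as their mean, while spacings 6 and 10 were found in 315 and 320 peaks. The edge of the preferred range was abrupt on both sides. CTG cannot overlap itself, so 1 GATA motif cannot have CTG at both spacing 8 and spacing 6, 7, 9 or 10. The highest of the other spacings was 15, in 514 peaks.

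Other orders of the same letters showed no such preference. With CTG on the far side of the GATA motif, counts over spacings 0 to 30 ran between 239 and 410 peaks. With the complement CAG on the near side they ran between 267 and 531, highest at spacing 11, and with CAG on the far side between 353 and 502. In CAGCTG the 2 sets of letters lie side by side, so spacing 11 for CAG is spacing 8 for CTG at those sites.

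Stretches 400 to 500 bp from the same summits, of equal total length, served as the background. The composite lay in the centre of 3185 peaks and in the flanks of 155, a ratio of 20.5. By spacing, the flanks held 55 peaks with spacing 8, 55 with spacing 7 and 48 with spacing 9, against 31 to 67 for the other 26 spacings. The ratio of centre to flank was 30.5 for spacing 8, 17.0 for spacing 7 and 13.9 for spacing 9, and 5.82 to 14.0 for the others. Without an allowance for the fewer places, spacing 9 was within the range of the other spacings by this ratio, and spacings 7 and 8 were above it. The place of spacing 9 with such an allowance was not computed.

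**Figure D1:**
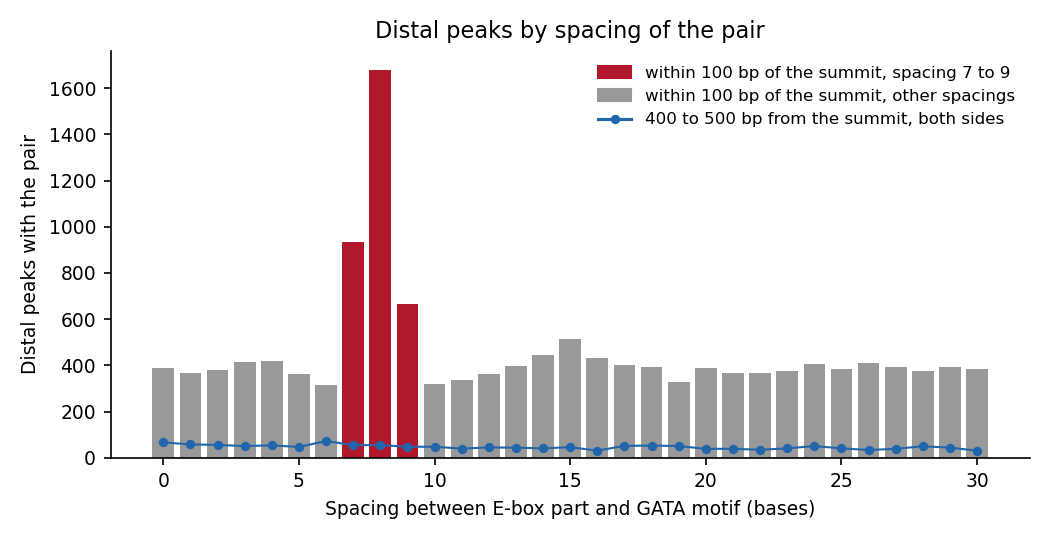
Number of distal peaks (vertical axis) that hold the E-box part and the GATA motif at each spacing (horizontal axis, in bases), within 100 bp of the summit (bars; red for spacings 7 to 9) and in 2 stretches at 400 to 500 bp (blue line). The bars at 7, 8 and 9 reach 935, 1678 and 665 peaks, the other bars stay at or below 514, and the blue line has no maximum at these spacings.

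The preference was seen in each library's own peak list, cut to the same number of peaks. Replicate 1 had 1638 distal peaks with spacing 8, 874 with spacing 7 and 644 with spacing 9, against 328 to 474 for the others. Replicate 2 had 1646, 906 and 660 peaks at spacings 8, 7 and 9, against 317 to 492. The ratio of spacing 8 to the mean of the others was 4.36 ± 0.0335, that of spacing 7 was 2.36 ± 0.0338 and that of spacing 9 was 1.73 ± 0.0108 (SD, n = 2 libraries). The composite was found in 25.5% ± 0.0861 of distal peaks in the libraries' own lists (SD, n = 2).

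Most members held 1 composite site. There were 3035 members with 1 site, 146 with 2 and 4 with 3, and no site was counted in more than 1 peak, giving 3339 different sites. Spacing 8 made up 51.0% of the sites, spacing 7 28.7% and spacing 9 20.3%. Repeat-masked sequence made up most of 6.68% of the sites.

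Most sites with these letters did not lie at a distal peak. The genome outside repeats held 143480 composite sites, and 3118 of them (2.17%) lay at a distal peak. The share depended on spacing: 3.38% of 47248 pairs with spacing 8 (3.22 to 3.54%), 1.82% with spacing 7 (1.70 to 1.94%) and 1.34% with spacing 9 (1.24 to 1.44%) lay at a distal peak. For the other 26 spacings together the share was 0.767% of 1232450 pairs, with 0.624% for the lowest spacing and 0.933% for the highest. All 3 spacings of the rule were above the range of the others. Pairs close to a TSS were counted in every denominator although they cannot lie at a distal peak.

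**Figure D2:**
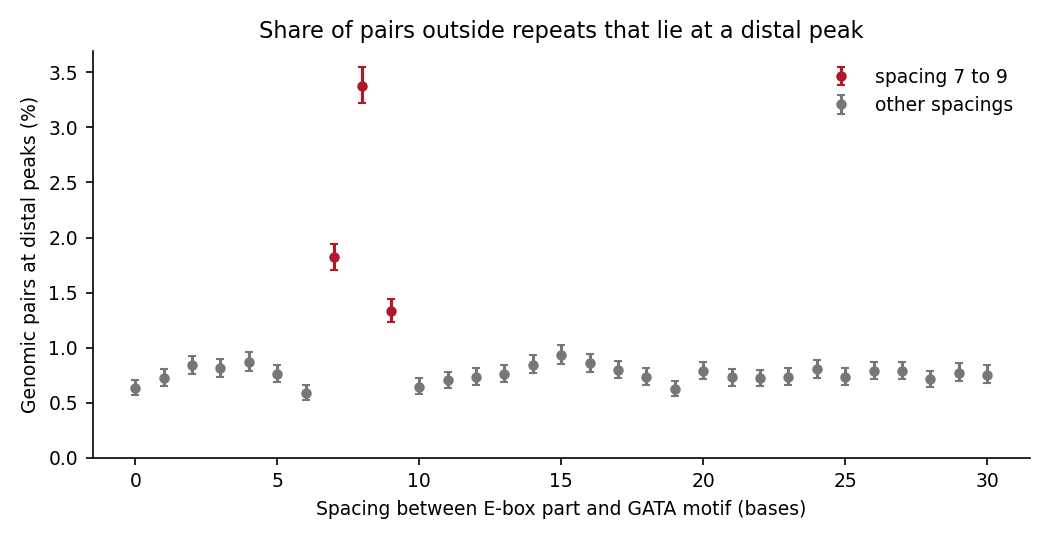
Percent of genomic pairs outside repeats that lay within 100 bp of the summit of a distal peak (vertical axis), by spacing in bases (horizontal axis); points are shares and bars are 95% Wilson intervals. Spacing 8 stands at 3.38%, spacing 7 at 1.82% and spacing 9 at 1.34%, and the grey points for the other spacings, including 6 and 10, lie below 1%.

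Letters next to the pair went with further differences in this share. At spacing 8, a pair followed by G after GATAA lay at a distal peak in 7.14% of cases (6.67 to 7.64%), against 1.56% with T in that place (1.35 to 1.79%). A full E-box, CA then any base then CTG, gave 5.84% (5.11 to 6.68%), against 3.18% without it (3.02 to 3.35%). With the full E-box and the G together the share was 12.2%, or 96 of 789 pairs (10.1 to 14.6%). The same letters at the other 26 spacings gave 1.82% (1.63 to 2.03%). The lowest combination at spacing 8, without a full E-box and with T after GATAA, gave 1.47% (1.26 to 1.71%), which was still above 0.314% for those letters at the other spacings. The order of the shares by the base after GATAA was G, C, A, T at spacings 7, 8 and 9 and at the others together.

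Within the members, the base that followed CTG was A in 12.6% of the 3339 sites, against 23.9% of the 10327 pairs at other spacings in distal peaks. It was T in 31.3% of composite sites and 26.6% of the others. The base just before CTG was A in 16.6% and T in 31.5% of composite sites, against 22.0% and 26.9% at other spacings. Toward the GATA motif, the base 2 places before its first letter was A in 34.6% of composite sites and 28.4% of the others. These places differed in the same direction at spacings 7, 8 and 9, where A after CTG made up 11.3%, 12.3% and 15.3%.

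The GATA end of the composite was close to that of other pairs. G followed GATAA in 47.8% of composite sites and 44.4% of pairs at other spacings, and the first letter of the motif was A in 63.6% and 61.2%. A full E-box was present in 11.4% of composite sites and 8.32% of pairs at other spacings, and in 12.6% at spacing 8. Among the full E-boxes of the members, CAGCTG was the most frequent with 173 sites, followed by CATCTG with 120, CAACTG with 54 and CACCTG with 35. Most members therefore held only the CTG end of an E-box next to the GATA motif.

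Members had stronger peaks than other distal peaks with a GATA motif. The signal of a peak is the number its caller gave it, as the authors deposited it, and each list has its own scale. In the optimal list the median signal was 61.2 for members (quartiles 32.1 and 131), 44.4 for the 6352 distal peaks with a GATA motif but no composite (25.7 and 91.5) and 26.6 for the 2842 without a GATA motif (16.8 and 50.2). Of the 2842 peaks counted as without a GATA motif, 1129 (39.7%) held A or T, then GATAG, a form that the motif used here leaves out. The ratio of members to GATA peaks without the composite was 1.38, and the quartile ranges overlapped widely. Of the GATA peaks without the composite, 3964 held CTG at another spacing on the same strand, and their median was 46.3.

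The same peaks kept this order by the signal of the matching summit in each library. Peaks without a match were left out. In replicate 1 a match was found for 3090 of 3185 members and 6018 of 6352 GATA peaks without the composite. It was found for 2413 of 2842 peaks without a GATA motif. In replicate 1 the medians were 30.1 for members, 22.7 for GATA peaks without the composite and 15.1 for peaks without a GATA motif. In replicate 2 they were 31.6, 24.1 and 16.3. The ratio of members to GATA peaks without the composite was 1.33 in replicate 1 and 1.31 in replicate 2. Each library's own list, cut to the same number of peaks, was also classed by itself. There the medians of members and GATA peaks without the composite were 30.3 and 22.6 in replicate 1. In replicate 2 they were 31.8 and 24.0.

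**Figure D3:**
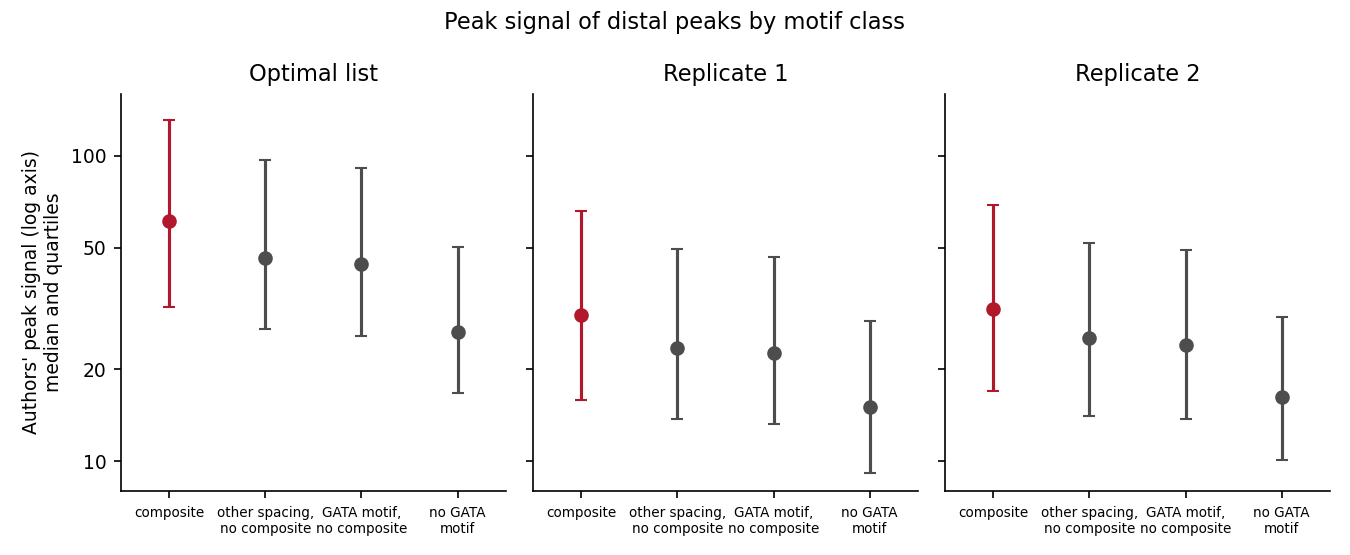
Authors' peak signal on a log axis (vertical) in the optimal list and, for the same peaks, of the matching summit in each library. The classes are distal peaks with the composite and those with a pair at another spacing and no composite. Next come those with a GATA motif (A or T, then GATAA) and no composite, which include the class to their left, and those with no such motif. Points are medians and bars run between the quartiles; the composite class has the highest median in each panel (61.2, 30.1 and 31.6), and the bars of all classes overlap.

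Members also held more GATA motifs, which was measured beside the signal. They averaged 1.58 GATA motifs within 100 bp of the summit, against 1.46 in GATA peaks without the composite. Each further GATA motif gives a peak another chance to meet the rule, so a higher number is built into the choice of members. With exactly 1 GATA motif the median signal was 55.9 in 1684 members and 41.8 in 3955 GATA peaks without the composite, a ratio of 1.34. With exactly 2 it was 65.3 and 48.7, and with 3 or more 68.1 and 48.8. The difference was present at each number of motifs. The median GC content within 100 bp of the summit was 46.8% in members, 46.3% in GATA peaks without the composite and 48.8% in peaks without a GATA motif.

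Spacing 8 had the strongest peaks of the 3. Its median signal was 66.7, against 56.6 for spacing 7 and 51.7 for spacing 9. In replicate 1 the order was 33.1, 29.3 and 26.3, and in replicate 2 34.5, 29.9 and 29.2, so that spacings 7 and 9 were close in replicate 2. At the other 26 spacings the medians were 40.6 to 55.4 for peaks without a composite. Spacing 9 lay inside that range and spacing 8 above it, with 65.5 for the 1603 members that held spacing 8 alone. The 875 members with spacing 7 alone had 54.2, inside the range. With peaks that also hold a composite counted, the medians at the other spacings were 45.9 to 58.8, a range that takes in spacing 7 as well.

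The share of members increased with peak strength. In the lowest of 10 equal groups of distal peaks by signal, 9.37% held the composite (7.87 to 11.1%), and in the highest 43.0% did (40.2 to 45.7%). Among distal peaks with a GATA motif the share was 21.1% in the lowest group and 47.5% in the highest. Spacing 8 alone was in 4.60% of the lowest group and 26.0% of the highest, and the mean of the other 26 spacings was 1.40% and 4.32%. The ratio of spacing 8 to that mean was 3.29 in the lowest group and 6.02 in the highest.

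**Figure D4:**
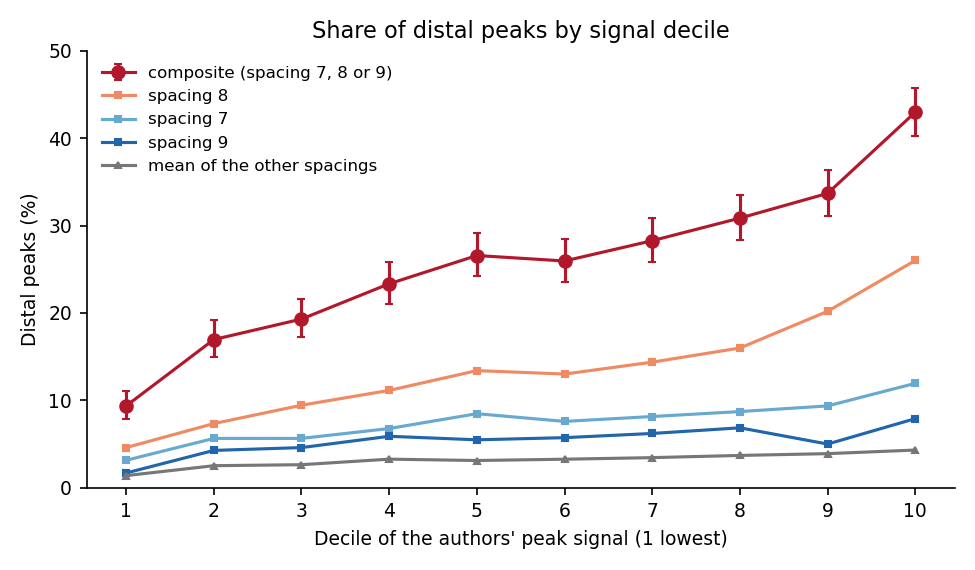
Percent of distal peaks that hold the composite, each of its spacings, or the mean of the other 26 spacings (vertical axis) in 10 equal groups by the authors' peak signal (horizontal axis, 1 lowest); bars on the composite line are 95% Wilson intervals. The composite line lies at 9.37% in the lowest group and 43.0% in the highest, the spacing 8 line differs most between the groups of the 3 spacings, and the grey line stays at or below 4.32%.

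Features within the composite and beside it went with signal among the members. The 150 members with 2 or more composite sites had a median of 101.7, against 59.9 for those with 1. By combination, the median was 156 for the 42 members with sites at spacings 7 and 8, 109 for the 33 with spacings 8 and 9, and 39.3 for the 18 with spacings 7 and 9, which is below that of members with 1 site. A full E-box went with 72.6, against 58.9 without one, and by its letters CAGCTG had 82.1, CATCTG 81.8, CACCTG 64.7 and CAACTG 49.6. G after GATAA went with 64.3, against 56.7 without it. The median was 61.2 where the motif began with A and 61.4 where it began with T. By the matching summits of each library the medians had the same order for the number of sites, the full E-box and the G. For the number of sites they were 50.3 against 29.6 in replicate 1 and 50.3 against 31.2 in replicate 2.

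Motifs of other blood factors were about as frequent in members as in other GATA peaks. CACCC is the core of sites for KLF1 and related factors. It was within 100 bp of 42.8% of member summits and 43.2% of those of GATA peaks without the composite. The share was higher, 48.0%, in peaks without a GATA motif, and it was 33.3% in the flanks of all distal peaks. TGACTCA or TGAGTCA, which NFE2 and AP-1 factors bind, was in 5.46% of members, 5.54% of GATA peaks without the composite and 10.2% of peaks without a GATA motif. TGTGGT, bound by RUNX factors, was in 18.3% of members and 20.7% of GATA peaks without the composite. AATC, searched for GFI1B, was in 61.5% and 62.6%, and ACGGAA or CCGGAA, searched for ETS factors, in 4.46% and 4.74%. These motifs were searched on both strands, and a match is a description of letters only. Members with CACCC had a median signal of 66.1, against 57.1 without it, and GATA peaks without the composite had 47.7 with it and 42.4 without it. For AATC the order was the reverse, with 55.4 in members that held it and 66.4 in those without it. TGTGGT also went with the lower median, 58.8 against 61.5. For TGACTCA or TGAGTCA the medians were 65.9 with and 60.8 without, and for ACGGAA or CCGGAA 63.3 and 61.1.

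Member summits recurred in both libraries more often than those of other distal peaks. A summit of each library's own list lay within 100 bp for 3032 members, which is 95.2% (94.4 to 95.9%), against 88.3% of all distal peaks. For GATA peaks without the composite it was 91.3% (90.6 to 91.9%) and for peaks without a GATA motif 74.1% (72.5 to 75.7%). The optimal list was itself made from the libraries' lists, so high shares are built into it. Signal moved with this share: the 3032 members had a median signal of 64.9 and the other 153 had 18.6. Above the median signal of the optimal list the difference between members and GATA peaks without the composite was 0.186 percentage points, where it was 3.92 over all. In the lowest signal group 56.9% of 116 members and 41.6% of 433 GATA peaks without the composite were in both libraries, and in the 9 stronger groups the shares differed by less than 2 points.

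Only 4 members had no summit in either library's list, 58 had one in replicate 1 alone and 91 in replicate 2 alone. The conservative list kept 88.8% of members and 83.8% of GATA peaks without the composite. Over the 3032 members the libraries' signals had a Spearman correlation of 0.918 across peaks, and over 5798 GATA peaks without the composite 0.871. Peaks are not independent replicates, and both values describe these libraries.

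The rule placed the composite within 100 bp of the summit, and most sites lay much closer. The site nearest to the summit was centred a median of 20 bp away (quartiles 10 and 33), and 61.9% of members had it within 25 bp. Pairs at other spacings in peaks without the composite were alike, with a median of 20 bp and 59.6% within 25 bp, and the nearest GATA motif in GATA peaks without the composite was a median of 21.5 bp away. At spacing 8 the median was 19 bp and 66.3% lay within 25 bp. Signal was highest for sites near the summit: the median was 62.2 within 10 bp, 69.2 at 10 to 25 bp, 56.7 at 25 to 50 bp, 44.1 at 50 to 75 bp and 36.8 beyond that. Pairs at other spacings showed the same order at lower levels, with 49.3, 52.6, 43.9, 36.5 and 28.4. The difference between members and those pairs was therefore present in each range of distance.

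The summit tended to lie on the E-box side. It was on that side of the site's centre in 1850 members and on the GATA side in 1318, or 58.4% (56.7 to 60.1%). The same lean was found around GATA motifs without a composite. The summit lay 5′ of the nearest GATA motif in 62.8% of members (61.1 to 64.5%) and in 60.8% of GATA peaks without the composite (59.6 to 62.0%). The site had no preferred strand with respect to genes. It was on the strand of the nearest coding gene in 50.3% of 2933 members (48.5 to 52.1%) and pointed toward its TSS in 48.3% (46.5 to 50.1%).

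Members lay in introns in 59.6% of cases and between genes in 34.6%, against 61.6% and 33.6% of GATA peaks without the composite. Their median distance to the nearest TSS was 8714 bp, against 8525 bp. Of the members, 42.2% had no other optimal peak within 12.5 kb, against 36.7% of GATA peaks without the composite and 28.99% of peaks without a GATA motif. In clusters of 5 or more peaks the members' median signal was 97.8, against 54.5 for GATA peaks without the composite, and for peaks alone it was 47.3 and 39.5.

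Members were assigned to genes by the nearest TSS of a protein-coding gene within 100 kb, which does not show that the gene is regulated by the peak. In all 2267 of 21728 coding genes (10.4%) were nearest to a member, 1773 of them to 1 member and 494 to more. For 252 members no coding TSS lay within 100 kb. Against that 10.4%, 35 of 82 erythroid and heme genes had a member (42.7%, 32.5 to 53.5%). GATA peaks without the composite, which are more numerous, were nearest to 40 of the 82 (48.8%) and to 15.7% of all coding genes, so a place near these genes is not particular to the members. These lists were chosen with earlier results of these data known, and counts near genes are a description.

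Genes of the TAL1 complex and its corepressors had 12 of 21, the highest share of the 9 lists, some of which have genes in common, and GATA peaks without the composite had 13 of them. The genes with a member include Runx1 with a member of signal 345, Cbfa2t3 with 337 and Gata1 with 217. Lmo2, Ldb1 and Tcf3, which encode partners of TAL1, were not the nearest gene of any member. Erythroid transcription factors had 11 of 24, against 12 for GATA peaks without the composite, led by Foxo3 with 468, Cbfa2t3, Myb with 274 and Ikzf1 with 250.5. Globin, membrane and receptor genes had 15 of 34, against 21. The strongest were Gypc, which encodes glycophorin C of the red cell membrane, with 509, Xpo7, a nuclear exporter, with 433, Tspan33 with 426 and Sptb, which encodes beta spectrin, with 392. Stem and progenitor genes had 9 of 20, against 10, among them Flt3, a growth factor receptor, with 164.2 and Etv6 with 77.0.

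Heme and iron genes had 9 of 24 with a member, and 7 with a GATA peak without the composite. Alas2, the first enzyme of heme synthesis in red cells, had 1 with a signal of 366, and 179.2 and 183.5 in replicates 1 and 2. Fech, which inserts iron into the ring, had 330.1, Cpox, an earlier enzyme of the pathway, 329.1, and Slc25a38, the mitochondrial glycine carrier, 158.7. Members lay near genes of both the start and the end of the pathway, while Alad, Urod, Uros and Ppox were not the nearest gene of any.

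The other lists had fewer. Megakaryocyte and platelet genes had 5 of 20, with Tubb1 at 215.6 and Itga2b and Itgb3, the subunits of the platelet fibrinogen receptor, at 33.4 and 36.2. Cell cycle genes had 4 of 25, namely Ccne1, Ccnd3, E2f4 and Cdk6 (interval 6.40 to 34.7%). Hepatocyte genes had 3 of 29, namely Fah, Rxra and Hpd, with none for Alb, Afp, Apoa1 or Hnf4a. Neuronal genes had 3 of 25 (interval 4.17 to 29.96%). The interval for hepatocyte genes was 3.58 to 26.4%. The interval for megakaryocyte and platelet genes was 11.2 to 46.9%. Among all coding genes the share with a member was 10.4%. The lists were chosen by hand and are short, so whether an interval covers that share is not a test. GATA peaks without the composite were nearest to 5 megakaryocyte, 6 cell cycle, 7 hepatocyte and 4 neuronal genes of these lists. They were nearest to 15.7% of all coding genes.

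The strongest member lay in an intron of Nprl3, whose introns hold upstream enhancers of the alpha globin genes, 37702 bp from the TSS of Hba-a1. Its signal was 544 in the optimal list, where it ranked 2, and 285 and 261 in replicates 1 and 2. It held 2 composite sites. It was the only member within 100 kb of Hba-a1.

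The beta globin locus held 8 members within 100 kb of the TSS of Hbb-bs, an adult beta globin gene. Their signals were 525, 372, 314, 305, 241, 90.4, 84.5 and 67.2. The 525 and 372 peaks, at 49205 and 42764 bp from Hbb-bs, and the 305 peak, at 31178 bp, lay on the side of the embryonic gene Hbb-y that faces Olfr66, where the locus control region, the distant enhancer of the cluster, is found. The libraries gave 268 and 263 for the first of these, 171 and 202 for the second, and 152 and 151 for the third. The 241 peak, nearest to Hbb-bt, the other adult gene, had 126 and 114. The weaker 90.4 peak, 26755 bp from Hbb-bs, also lay on the Olfr66 side of Hbb-y, with 42.2 and 49.3 in the libraries. The 314 peak, at 87432 bp, lay on that side too, past Olfr66. None of the 8 had Hbb-bs as its nearest gene, and the 3 strongest had an olfactory receptor gene instead.

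Regulators of blood formation had members of very different strength. Cbfa2t3, which encodes the corepressor ETO2, had 4 as nearest gene, at 337, 297, 269 and 234, and each was above 100 in both libraries. Gata1 had 3, at 217, 97.1 and 25.5, and the weakest gave 12.2 in either library. Zfpm1, which encodes the GATA1 cofactor FOG1, had 3, at 111, 83.8 and 42.2. For the middle one the libraries differed, with 35.0 in replicate 1 and 58.5 in replicate 2. Tal1 had 1 as nearest gene, at 136, and another of 365, with 180 and 188 in the libraries, lay 36386 bp from its TSS beside Pdzk1ip1.

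Gfi1b, a repressor that controls red cell and platelet precursors, had 2 as nearest gene, at 37.4 and 33.3, and the first of these had no summit in replicate 2. A member of 404, with 216 and 194 in the libraries, lay 17150 bp from its TSS but was nearer to Gtf3c5. Gata2, which is active earlier than Gata1, had 54.6 at the intronic element shown above, with 25.7 and 26.97 in the libraries, and a further member of 27.5. Kit, the stem cell factor receptor, had 1 of 39.9 within 100 kb, and it was also the nearest coding gene of stronger members of 239.9 and 168.4 beyond that distance. Ep300 itself had 1 of 109, with 45.9 and 58.0 in the libraries. Around Lyl1, which encodes a relative of TAL1, the nearest member was 29495 bp away, with a signal of 398.

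Several erythroid genes had no member nearby. No member lay within 100 kb of Klf1, Nfe2, Slc4a1 or Epor, which encode an erythroid activator, a globin regulator, the band 3 anion exchanger and the erythropoietin receptor. The nearest was 104119 bp from Nfe2, 121904 bp from Slc4a1, 170976 bp from Klf1 and 404082 bp from Epor. Peaks at promoters are outside the rule, and none of these values bears on EP300 there.

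**Figure D5:**
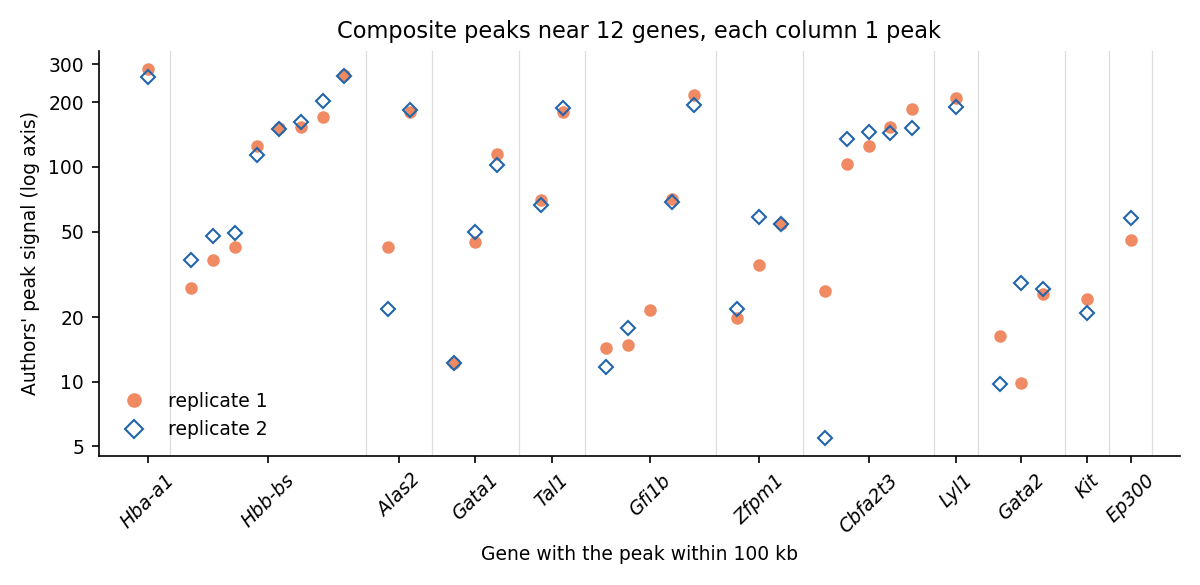
Authors' peak signal on a log axis (vertical) in replicate 1 (filled circles) and replicate 2 (open diamonds) for each composite peak within 100 kb of 12 genes (horizontal axis; each column of symbols is 1 peak, ordered by optimal signal within a gene). The strongest globin, Alas2 and Cbfa2t3 peaks reach above 100 in both libraries, those near Gata2 and Kit stay below 30, and 1 Gfi1b peak has no summit in replicate 2.

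A few genes gathered many members. Dennd1a, which encodes a regulator of endosome traffic, was nearest to 8 members out of 13 distal peaks, with signals between 16.0 and 121. All 7 distal peaks nearest to Ube2e3, a ubiquitin-conjugating enzyme, were members, with signals between 20.8 and 98.0. Bpgm, the enzyme that makes bisphosphoglycerate, which lowers the oxygen affinity of hemoglobin, was nearest to 6 of 8, between 44.7 and 186. Cdyl, Mbp, Nt5c2 and Plxna2 had 5 each, out of 12, 16, 8 and 7 distal peaks in that order. Among all distal peaks 25.7% were members. Cpeb4, a translational regulator in red cell precursors, had 4 of 17, a share below that, but 2 of them, at 487 and 477, were among the 25 strongest members.

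Other members among the 25 strongest were nearest to Ube2l6, a conjugating enzyme for ubiquitin-like ISG15, with 512, Foxo3, a factor active in red cell maturation, and Gpx1, an antioxidant enzyme, with 466. Their libraries gave 252 and 265 for Ube2l6, 248 and 221 for Foxo3, and 246 and 222 for Gpx1. The member nearest to Bcas2, with 471, held 3 composite sites. Of the 25, 14 were at spacing 8 by the site nearest to the summit, 7 at spacing 7 and 4 at spacing 9. Among all 3185 members the numbers were 1637, 908 and 640, a similar mix.

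Peaks at the limits of the rule were as follows. Just outside the inner distance limit, at 750 to 1000 bp from the TSS, 17.2% of 441 peaks held the composite, with a median signal of 60.9, and in the first 250 bp inside it 24.7% of 377 did, with 71.3. At the outer limit it was 33.3% of 123 peaks at 80 to 100 kb and 34.5% of 58 at 100 to 120 kb. Sites that reached 90 to 100 bp from the summit made 47 peaks members, with a median signal of 34.8, and 30 further peaks had their only site reach 100 to 110 bp, with 38.7.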

How the data were processed

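The files are the authors' deposited narrowPeak lists on mm10 for EP300 ChIP-seq of 2 libraries. Per the deposited file listings, replicates 1 and 2 were each called with 1 control file, the pooled list used both, and the optimal and conservative lists hold peaks kept by IDR, a measure of agreement between lists. The signal that the authors deposited is the caller's value for a peak, and the summit is the deposited start plus the offset; which aligner, caller and threshold were used is not given in the sources read here. No file gives read totals, so the depth is unknown.

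From these, summits on chromosomes 1 to 19 and X (12 peaks on unplaced contigs were left out) were set on GRCm38.p6 and GENCODE vM21 with Python 3.11.15, pandas 2.3.3 and numpy 2.4.6. Sequences are from the RefSeq copy of GRCm38.p6. A site had to lie whole within 100 bp of the summit; the scan of spacings 0 to 30 used the same window. A peak was counted in a library when its summit lay within 100 bp of one in that library's full list. The signal of the strongest such summit was then taken as the peak's value in that library. Where a library's own list was classed by itself, it was cut to its strongest 17055 peaks. The search was tested on simulated sequences with planted sites. Every comparison is a description over peaks, sites or genes, with 95% Wilson intervals on shares and no test. The genes named are those nearest to the 25 strongest members, 8 of those nearest to most members (7 have 5 or more; Cpeb4 ties with many at 4 and has the strongest member of these), up to 4 per list of the 9 lists, and 16 fixed genes; genes of a list without a member, and Cpeb4's count of peaks, were named after their values were seen. The members and lists were chosen with earlier results of these data known. The other orders of the letters, the shares of genomic pairs and the splits by letters, signal and distance were added after the data were seen. Alternatives are given in the closing section.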

Additional observations from a re-analysis of the deposited data

How the results depend on the processing

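Of 54 values computed under 18 planned settings, 16 stayed within the bounds set around the reported value. These bounds were the SD of the 2 libraries for the shares and ratios. For the difference in summits found in both libraries they were an interval of 2.88 to 4.91 points. For the gene count they were a fold range wider than its SD of 2.12, and all its values lay within it. The ratios all stayed above 1 and the differences above 0. The share of distal peaks with the composite was 26.4% in the conservative list, 26.5% in the top of the pooled list, 32.1% above the median signal, 21.9% with the site within 50 bp, 26.6% without peaks within 500 bp of a stronger one, 26.2% beyond 2.5 kb, 24.98% with protein-coding TSSs only, 25.9% with no upper distance limit, 13.6% for spacing 8 only and 3.09% with a full E-box required. Without 1 replicate it was 25.4 to 25.5%. The ratio of median signal, members over GATA peaks without the composite, was 1.36, 1.34, 1.19, 1.35 and 1.36 under the first 5 of these settings, 1.502 for spacing 8 only, 1.63 with a full E-box, 1.34, 1.34 and 1.39 with exactly 1, exactly 2 and 3 or more GATA motifs, and 1.32 to 1.34 without 1 replicate. The ratio of spacing 8 to the other spacings was 4.35 in the conservative list, 4.78 above the median signal, 5.17 within 50 bp and 4.34 to 4.38 without 1 replicate. The ratio of centre to flank was 27.3 above the median signal, 43.7 within 50 bp, 23.4 without close peaks, 30.5 for spacing 8 only and 19.8 to 22.9 without 1 replicate. The flanks offered a site fewer places than the centre in each of these settings, the more so within 50 bp. The difference in summits found in both libraries, in percentage points, was 1.65 in the top of the pooled list, 0.186 above the median signal, 2.77 without close peaks and 7.50 with library summits within 25 bp. With sites in repeats counted, an alternative chosen after seeing the data, 3.01% of genomic pairs with spacing 8, 1.61% with spacing 7 and 1.08% with spacing 9 lay at a distal peak, against 0.413 to 0.753% for the other spacings. The cause of these moves was not tested beyond what each setting changes by construction. The count of erythroid and heme genes was 33 to 39. No paired analysis was possible because the 2 libraries form 1 group. The depth is unknown, the libraries share a biosample label, and 2 libraries give only a rough SD.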
